A study of Drosophila melanogaster with 4 samples.

Results

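The odorant-binding protein genes of Drosophila melanogaster were examined in 4 baseline samples of whole animals, each hybridised to 1 one-colour Affymetrix array. Members were taken by symbol from the platform annotation: every probe set annotated to exactly 1 gene whose symbol begins with Obp and a digit, together with lush and the older names of the same family. This gave 36 genes of the 10844 named on the array, each with 1 probe set, and they were 36 of the 52 odorant-binding protein genes in NCBI RefSeq's gene table. All flies were reared on standard food until early in the third larval instar, then kept on food without yeast until 4 days after emergence, and killed just before a refeeding time course began. The samples, called libraries 1 to 4 here, were placed by the submitters at hours -4, -3, -2 and -1 for a change-point analysis. The labels do not say that the flies died at those hours. All 4 belong to 1 group, so there is no treated group, and refed flies are not analysed here. The sources used here do not give the strain, the sex, the number of flies per sample or whether samples came from separate cultures, so p-values measure only the spread between these samples, which may be technical.

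Odorant-binding proteins are small secreted proteins that bind hydrophobic molecules. In the antenna and the taste organs, support cells release them into the fluid around the dendrites of sensory neurons, where they can carry or buffer odorants on their way to membrane receptors. Several members are made elsewhere, among them in the male reproductive tract, in fat body and in glia, so a whole-animal sample holds RNA from all of these sources. Fewer cells of a type and less RNA per cell cannot be told apart in such samples.

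Library 3 stood apart in RNA of male tissues, and libraries 3 and 4 differed from libraries 1 and 2 in control probe sets. All 19 measured accessory gland and duct genes had their highest value in library 3, where their summed intensity was 2971 against 894 to 989 in the other libraries. For testis the counterpart was 12 of 17 genes and a sum of 4681 against 2894 to 2929, and the summed intensity of 15 ovary and yolk genes was 3227 in library 3 against 3285 to 3513. No marker was at 0, but Acp26Aa, a main accessory gland product, had 27.1 in library 3 and 10.5 to 11.1 elsewhere, below the median non-fly control in every library. The hybridisation controls, added in fixed amounts, stood at 1.59 and 1.29 times library 1 in libraries 3 and 4 and at 0.927 times in library 2. The log2 ratio of 3′ to 5′ control probe sets was 1.44 and 1.40 in libraries 3 and 4 and lower, at 1.14 and 1.05, in libraries 1 and 2. Of 7 measured markers for a whole adult, 5 exceeded background in all 4 libraries (Act88F of flight muscle, alphaTry of midgut, Yp1 of fat body and ovary, repo of glia and Orco of the antenna), while elav of neurons and Acp26Aa did not.

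The first question was which of these genes gave a signal above background, since the arrays came without detection calls. Background was measured with the 23 control probe sets for mouse, yeast and bacterial sequences, whose highest member had a normalized intensity of 121, 119, 126 and 133 in libraries 1 to 4 and whose median lay between 46.1 and 48.7. By this limit 12 of the 36 genes were above background in all 4 libraries, 2 were above it in some and 22 in none. Over all named genes 42.5% exceeded the limit in all 4 libraries, so a share of 33.3% for the odorant-binding proteins was no larger than that of the array as a whole. Of the 22, 14 still exceeded the median control in all 4 libraries, and the other 8 lay at or below it in at least 1. The lowest single value of the genes above background was 150.1, and the highest of the rest was 129. The limit itself makes this split, so the gap is no support for where the limit was set. An intensity under the limit gives only a bound on the level and does not say whether the gene was expressed. Levels of different probe sets were not set against each other, because each binds its target with its own strength.

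**Figure D1:**
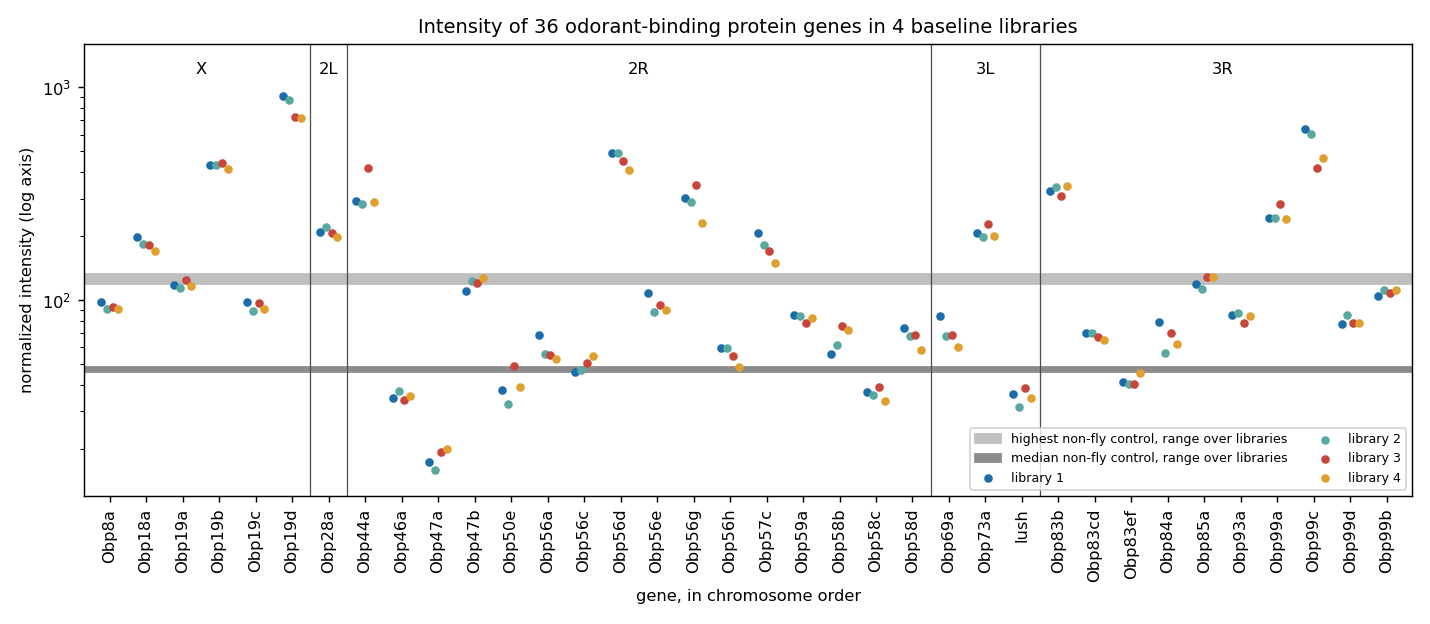
Normalized intensity (log axis) of the 36 odorant-binding protein genes in chromosome order, with 1 point per library. The pale band spans the highest non-fly control over the libraries (119 to 133) and the dark band the median control (46.1 to 48.7). The 12 genes above background sit at 150.1 or higher in every library, and the 4 points of a gene mostly lie close together.

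Genes known for expression in the antenna were found on both sides of the limit: 4 of 9 measured members of this list exceeded background. Obp19d, found in antenna and taste organs, gave 911, 875, 723 and 719 in libraries 1 to 4 (mean 807 ± 100.2, SD, n = 4). Obp56d, a gene of chemosensory organs of the head, gave 489, 493, 452 and 407 (460.5 ± 40.3). Both were higher in libraries 1 and 2 than in libraries 3 and 4, and lowest in library 4. How many probe sets of the array share this order was not counted. Obp83b, also called Os-E and made around trichoid and intermediate sensilla of the antenna, gave 326, 341, 309 and 345 (330.0 ± 16.3). Obp28a, an abundant antennal member, gave 209, 219.7, 208 and 199 (209 ± 8.61). In these 2 genes no library lay far from the others.

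The other 5 antennal members were not above background. The most studied of them, lush, is needed for the response of trichoid neurons to the male pheromone cVA, and its probe set gave 36.1, 31.5, 38.5 and 34.9, under the median non-fly control in every library. Obp69a, which is known to modulate social responses to cVA, gave 60.5 to 84.4. Obp84a gave 56.3 to 79.1, and Obp59a, which acts in humidity sensing, gave 78.2 to 85.0. These values lay between the median and the highest control. Obp19a came closest to the limit, at 118, 115, 124 and 117, and was under it in every library. Obp83a, a paralog that neighbours Obp83b, was not among the members and was not analysed here.

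In the taste list 1 gene was measured, and it was above background with the smallest spread of the 12. Obp19b, which is needed for amino acid detection in taste sensilla of the labellum, gave 434, 429.9, 441 and 411 (429 ± 12.7, SD, n = 4), a coefficient of variation of 2.97%. Obp57c belongs to a cluster of genes with expression in taste organs and gave 207, 183, 171 and 150.1 (177 ± 23.6). It was highest in library 1 and lowest in library 4. Obp49a, Obp57b and Obp57e, members of the list, were not analysed here.

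Of the members known as seminal fluid proteins 3 were measured, and 1 was above background. Obp56g, which is made in the ejaculatory duct and bulb and transferred to females at mating, gave 301, 288, 348 and 231 (292 ± 47.8, SD, n = 4). Its highest value fell in library 3, the library with the highest values of the accessory gland genes, and its lowest in library 4. Obp8a gave 98.1, 91.0, 92.4 and 90.8, and Obp56e gave 108, 88.0, 95.1 and 90.2. Neither was highest in library 3, and both lay under the limit in all 4 libraries. Obp99b, also named turn on sex-specificity, is known for higher expression in the fat body of males, and gave 105, 112, 108 and 112, under the limit and without a peak in library 3.

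The remaining genes above background included some with known roles outside smell and taste. Obp44a, which encodes a lipid-binding protein released by glia, gave 292, 282, 419 and 288 (321 ± 66.1, SD, n = 4). Library 3 alone was high, while the other 3 libraries differed by less than 10 units of intensity. Obp99a gave 243, 244, 283 and 241 (253 ± 19.98), again with library 3 above 3 libraries of nearly equal value. Obp99c gave 636, 605, 418 and 467 (532 ± 105). Libraries 1 and 2 were both higher than libraries 3 and 4. Obp73a, one of the members with recognisable counterparts in other insect orders, gave 206, 199, 229 and 201 (209 ± 13.7), and Obp18a gave 199, 183, 183 and 171 (184 ± 11.6).

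Genes counted here as the Plus-C type, known for longer proteins with additional cysteines, were all at or under the limit in at least 3 of the 4 libraries. Their type was taken from general knowledge and not checked against protein sequences, and the list was drawn up after the values had been seen, so its count is a description without a test. Of its 8 measured members, 0 were above background in all 4 libraries, against 12 of the 36 genes as a whole. Obp85a and Obp47b lay at the limit: Obp85a exceeded it only in library 3 (129, with 113 to 129 over the libraries), and Obp47b only in library 2 (123, with 111 to 127). Obp93a gave 77.7 to 87.0, Obp58d gave 58.1 to 73.9 and Obp58b gave 56.1 to 75.3. Obp58c, with 33.4 to 38.9, and Obp46a, with 33.8 to 37.4, were under the median control in every library. Obp50e, with 32.4 to 49.3, exceeded the median control in library 3 only.

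The count above background depends on where the limit is set, and 28 members exceeded the median control in all 4 libraries. Next to the limit, Obp57c and Obp18a had a mean of 1.43 and 1.48 times it, and Obp85a and Obp47b, which each crossed it in 1 library, one of 0.980 and 0.963 times. These ratios set each probe set against the controls and not against another gene. The other members below the limit were Obp19c (89.0 to 98.4), Obp99d (77.3 to 85.2), Obp83cd (64.7 to 69.9), Obp56a (52.9 to 68.3), Obp56h (48.3 to 59.9), Obp56c (45.8 to 54.9), Obp83ef (40.3 to 45.7) and Obp47a (15.9 to 20.03).

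Genes that neighbour each other on a chromosome did not always share their side of the limit. By the order of genes in the RefSeq table, Obp19a, Obp19b, Obp19c and Obp19d on the X chromosome follow each other with 0 other protein-coding genes between them. Of these, Obp19b and Obp19d were above background and Obp19a and Obp19c were not. In the run of 6 genes from Obp56a to Obp56f, again with 0 other protein-coding genes between neighbours, 4 were measured and Obp56d alone exceeded the limit. The next pair, Obp56g and Obp56h, was divided in the same way, with Obp56g above. At the end of 3R, Obp99a and Obp99c were above background, while Obp99d and Obp99b were not. The run of Obp59a, Obp58b, Obp58c and Obp58d lay wholly under the limit. By chromosome arm, 3 of 6 members on X, 1 of 1 on 2L, 4 of 16 on 2R, 1 of 3 on 3L and 3 of 10 on 3R were above background. Over all named genes the share was 42.5%. It was not computed for each arm, so these small counts only describe the members.

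Chemosensory receptor genes were measured on the same arrays. Among 123 odorant, gustatory and ionotropic receptor genes 17 were above background, which is 13.8% against 33.3% for the odorant-binding proteins. The difference was not tested, since genes are not replicates. The counts were 8 of 52 odorant receptor genes, 4 of 28 gustatory receptor genes and 5 of 43 ionotropic receptor genes. A list of genes of the chemosensory periphery shares Ir8a, Ir25a and Ir76b with the ionotropic receptors, so Ir8a is counted in both. Of its 12 measured genes, 4 exceeded the limit: Orco, the shared co-receptor of odorant receptors (147 to 167), Snmp1, a membrane protein of pheromone-sensing neurons (141 to 148), Ir8a, a co-receptor of ionotropic receptors (153 to 172), and EbpIII (1394 to 1738). Of these 12, 5 were bright enough to be tested. Their log2 changes in library 3 against the other libraries ran from -0.05 for Snmp1 to 0.05 for EbpIII.

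**Figure D2:**
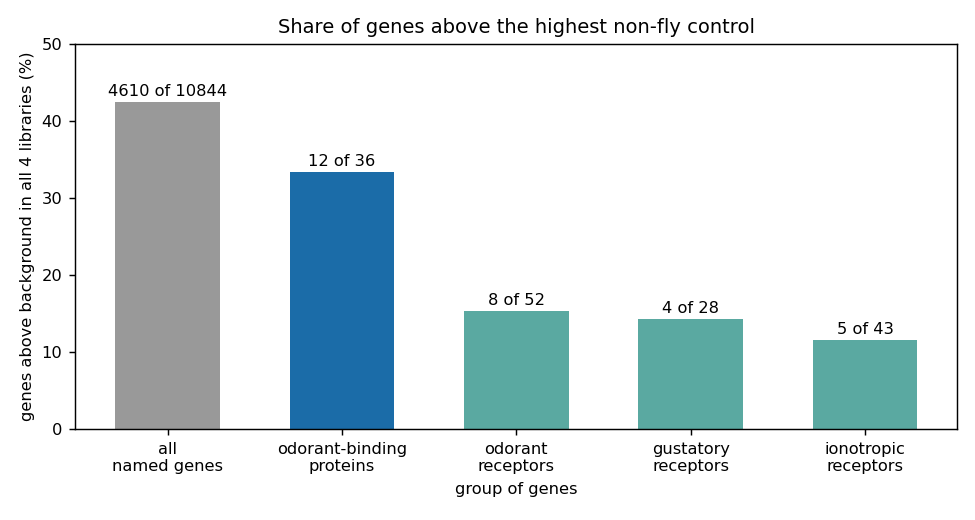
Share of genes whose intensity exceeded the highest non-fly control in all 4 libraries, with counts above the bars. The odorant-binding proteins (12 of 36) lie between all named genes (4610 of 10844) and the 3 receptor families.

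The second question was how much the members varied between libraries. For tests, a floor of 57.1 was set at the 20th percentile of intensities, values were put on a log2 scale, and a probe set was kept if its mean exceeded the 40th percentile of means, equal to an intensity of 92.5. This left 19 of the 36 members, including all 12 above background and 7 at or under the limit, and each of the 19 also passed this threshold without library 3. The coefficient of variation of the 12 genes ran from 2.97% for Obp19b to 20.6% for Obp44a, with a median of 8.33% against 5.24% over all tested probe sets. The median SD of log2 intensity over the 19 members was 0.09 against 0.08 over all tested probe sets. The ratio of a gene's SD to that expected at its intensity had a median of 1.17 over the 19 and of 0.927 over all. It was largest for Obp44a (3.19), Obp99c (2.997), Obp56g (2.89) and Obp57c (2.48).

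None of the 19 members passed the limma-based test for a variance above that of probe sets of like intensity, for which 0.274% of all tested probe sets were called. The smallest adjusted p was 0.401, for Obp44a, followed by 0.476 for Obp99c and 0.530 for Obp56g. At an unadjusted p under 0.05 there were 4 members of 19 (21.1%), these 3 and Obp57c, against 5.53% of all tested probe sets. The 12 genes above background did not share 1 pattern over the libraries: library 3 was the highest for 5, library 1 for 4, library 2 for 2 and library 4 for 1. Library 4 was the lowest for 8 of them, libraries 2 and 3 for 2 each and library 1 for 0. Over all 10844 named genes, library 3 was the highest for 2829. The other shares over all genes were not counted, so these counts only describe the 12 genes.

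**Figure D3:**
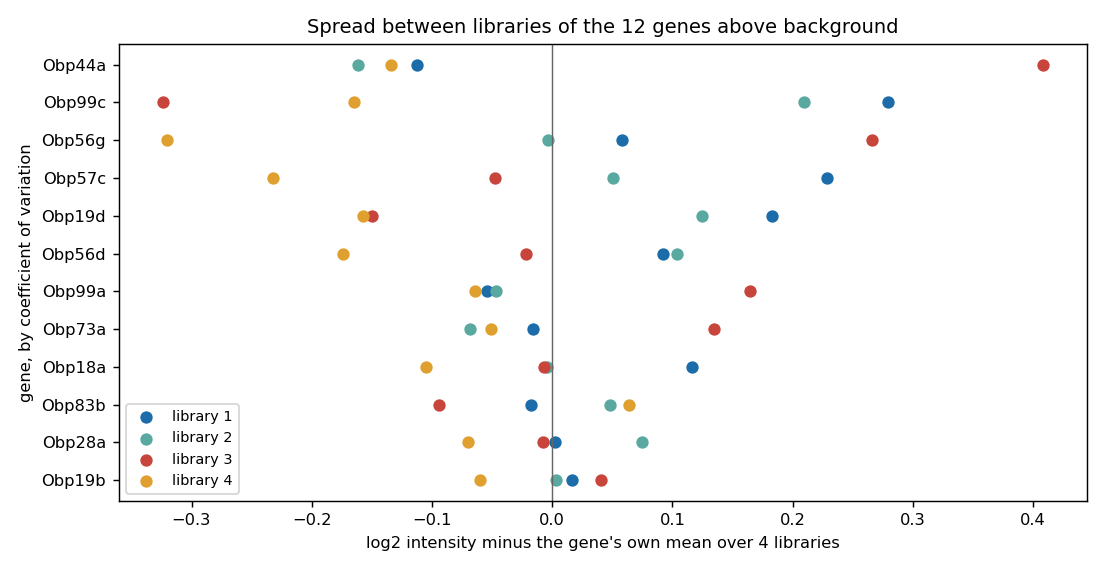
Log2 intensity of the 12 genes above background in each library, minus the gene's own mean over the 4 libraries, ordered by coefficient of variation. Library 3 is the highest for Obp44a, Obp56g, Obp99a, Obp73a and Obp19b and the lowest for Obp99c and Obp83b, so the 12 genes did not move together.

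The third comparison took each library in turn against the average of the remaining 3, with all 8379 tested probe sets in the fit. Obp44a was the 1 member that differed. It was higher in library 3, with a log2 change of 0.54 ± 0.09 (SE of 1 library against 3), or 1.46-fold, with an adjusted p of 0.0227 in limma, where 0.561% of all tested probe sets were called higher in library 3 and 0.143% lower. With 1 sample on that side, its spread had to be taken from the others, so this is not a replicated difference. The call was lost without a filter (adjusted p = 0.236 in limma) and with library 1 left out (adjusted p = 0.0782), while the size of the change was 0.54 and 0.56. Without library 3, Obp44a gave 282 to 292 in the remaining libraries. The male marker genes and the control ratios given above also stood apart in library 3, and their part in the value of Obp44a was not tested. The level of repo, a glial gene, was 157 in library 3 and 154 to 173 in the others. That of elav, a gene of neurons under the background limit, was 113 in library 3 and 94.9 to 104 in the others. Whether the amount of glial RNA differed between libraries was not tested.

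The other members did not pass in library 3. Obp56g was higher by 0.35 ± 0.14 (SE), Obp99a by 0.22 ± 0.08 and Obp73a by 0.18 ± 0.08, and Obp99c was lower at -0.43 ± 0.16, with limma adjusted p from 0.646 to 0.767. These 4 and Obp44a were the members with an unadjusted p under 0.05, 5 of 19 (26.3%) against 6.46% of all tested probe sets. The median log2 change of the 19 members in library 3 was 0.00, against -0.01 over all tested probe sets. None of the 3 tested seminal fluid members passed: Obp56e and Obp8a had log2 changes of 0.00 ± 0.12 and -0.01 ± 0.09. Among the 5 tested antennal members 0 passed, with changes from -0.20 for Obp19d to 0.09 for Obp19a, and Obp19b of the taste list had 0.05 ± 0.10.

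**Figure D4:**
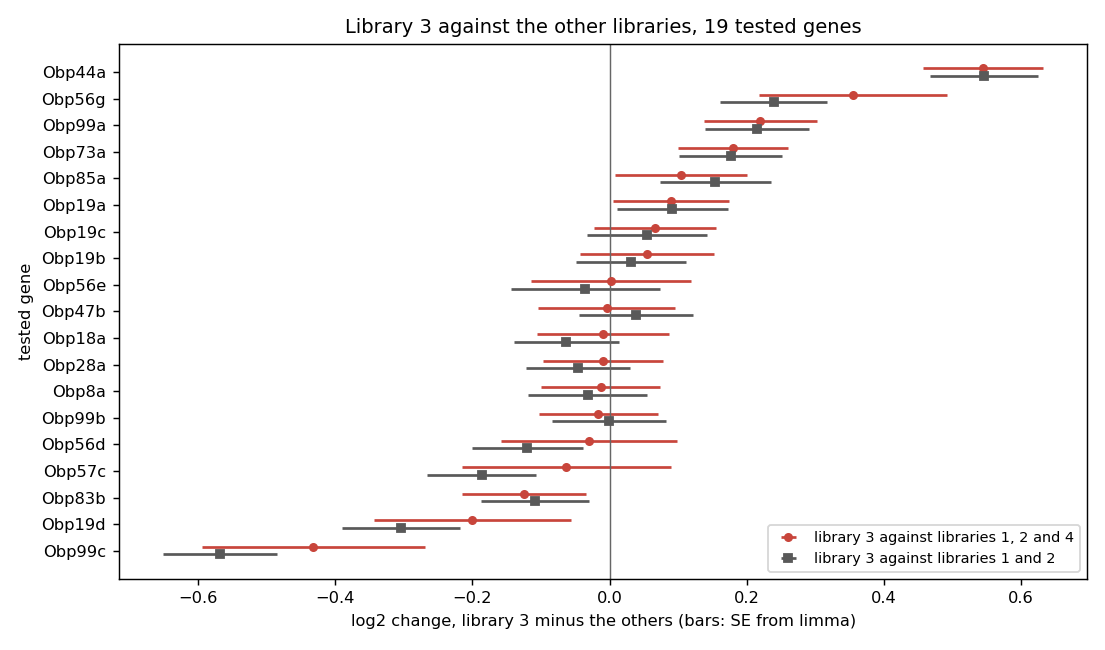
Log2 change of the 19 tested genes in library 3 against libraries 1, 2 and 4 (circles) and against libraries 1 and 2 (squares), with SE bars from limma. Obp44a lies at about 0.54 in both fits, and Obp99c moves from -0.43 to -0.57 when library 4 is left out.

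In the other libraries 0 members passed at an adjusted p under 0.05 in limma. The share of all tested probe sets called was 0% for library 1, 0.107% for library 2 and 0.0119% for library 4. At an unadjusted p under 0.05 library 1 had 2 members (10.5% of the 19, against 2.05% of all tested probe sets), library 2 had 0 (against 2.83%) and library 4 had 3 (15.8% against 8.63%). The largest difference in each direction within each of these libraries was that of Obp99c in library 1 (0.37 ± 0.19, SE) and library 2 (0.28 ± 0.23), of Obp56g in library 4 (-0.43 ± 0.11), of Obp47b in library 1 (-0.16 ± 0.10) and library 4 (0.11 ± 0.09), and of Obp44a in library 2 (-0.22 ± 0.24). In this last value the high library 3 is among the other 3.

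Leaving out library 3 or library 4 brought further members past the threshold. Both of these fits use libraries 1 and 2 as their only comparison, take the spread from that pair and share it, so their calls are not independent of each other. Library 3 against libraries 1 and 2 gave 3 members in limma: Obp44a at 0.55 ± 0.08 (SE, adjusted p = 1.61e-06), Obp99c at -0.57 ± 0.08 (adjusted p = 2.13e-06) and Obp19d at -0.30 ± 0.09 (adjusted p = 0.0234). In that fit 2.01% of all tested probe sets were called higher and 4.01% lower. Library 4 against libraries 1 and 2 gave 5 members, all lower, where 4.71% of all tested probe sets were called lower. They were Obp99c at -0.41 ± 0.08, Obp56g at -0.35 ± 0.08, Obp57c at -0.37 ± 0.08, Obp19d at -0.31 ± 0.09 and Obp56d at -0.27 ± 0.08, with limma adjusted p from 0.00342 to 0.0385. Obp44a was not among them, with 288 in library 4 and a log2 change of 0.00 ± 0.08. Obp99c and Obp19d had lower values in libraries 3 and 4 than in libraries 1 and 2. The same order held for Obp56d, Obp57c, Obp28a and Obp18a, but not for the other genes above background. For Obp18a the margin was small, with 182.9 in library 2 and 182.6 in library 3. The 3′ to 5′ control ratio separates the same pairs of libraries, and the part of RNA quality in these values was not tested.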

How the data were processed

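Per the labels' protocols, total RNA of whole animals was extracted with Trizol and hybridised to Affymetrix arrays. The intensities, on a linear scale, were deposited after the authors had normalized them with DNA-Chip Analyzer (dChip) through an invariant selection of probes, per the labels. The sources used here do not give its version, its background model or detection calls. The number of arrays, 4, limits the precision. The medians of the 4 columns lay within 111.7 to 112.6, so no further normalization was applied.

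Of 14010 probe sets, 44 are controls and stayed out of all tests. Of the others, 12443 matched 1 gene, 327 several and 1196 none in the platform annotation of the array, and 12394 symbols were updated through gene identifiers to the gene table of NCBI RefSeq (assembly Release 6 plus ISO1 MT), which also gave the chromosomes and the order of genes. The highest-mean probe set stood for a gene. Protein and nucleotide sequences were not used here.

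Tests used limma 3.58.1, with statmod 1.5.0, under R 4.3.3: squeezeVar (robust, trended) for the variance, with a prior of 7.26 degrees of freedom, and lmFit with eBayes (robust, trended), two-sided, for each library against the others. Benjamini-Hochberg adjustment ran over all 8379 tested probe sets within each test. Both were run on simulated data drawn from the variance model that the tests assume. This is a check of the code and cannot show whether the model holds for these arrays. The members and lists were chosen with earlier results of these data known. Genes named with values are those above background, those called, the largest change each way per library, the 2 genes on each side of the limit and the members of the lists; the Plus-C list and genes below the limit were added after their values were seen. The lists were antennal, taste and seminal fluid members, other genes of the chemosensory periphery, receptors, and markers of accessory gland and duct, testis, ovary and yolk, and whole adults. Alternatives changed the background limit, floor, filter, scaling, prior or probe set per gene, or left out a library.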

Additional observations from a re-analysis of the deposited data

Results flagged for a closer look

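In 3 of the 36 members 1 library lay far from the other 3 relative to the range of the 4 values (Dixon's criterion). For independent normal values about 1.8 would be expected. The share of all probe sets that meet this criterion was not computed, so the count is not a result about these genes. Obp44a had 419 in library 3 against 282 to 292. Obp99a had 283 in library 3 against 241 to 244. Obp99d, under the background limit, had 85.2 in library 2 against 77.3 to 77.9.

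A probe set that matches both Obp57d, a taste gene, and the cuticle gene Cpr57A was outside the comparisons because it names 2 genes. It gave 317, 335, 315 and 319.8 in libraries 1 to 4, all above the highest non-fly control. Which of these genes gave the signal cannot be told apart with this probe set.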

How the results depend on the processing

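The count of 12 members above background became 15 with the limit at the 95th percentile of the controls and 28 with the limit at their median. It was 12 under quantile normalization, median scaling and the lowest-mean probe set per gene. None of these is a check of the count. The scalings keep the order of values within a library, and each member had 1 probe set. Without each library in turn it was again 12, where it could only have stayed or risen. The count of variable members was 0 under every alternative run. In library 3 the count of 1 fell to 0 without a filter and ran from 0 to 3 with a library left out: 0 without library 1, when 16 members were tested, and 3 without library 4. Obp44a passed in library 3 under 10 of 12 alternatives, with log2 changes from 0.47 to 0.58 and limma adjusted p from 1.61e-06 to 0.236. In library 4 the count ran from 0 to 5, with 5 without library 3. In library 1 it was 0 with each other library left out and 1 without a filter. That 1 call, Obp56a, arose because its other 3 libraries were set to the floor and so had no spread. In library 2 it was 0 throughout. For the 8 pairs of gene and library with the largest change each way, the direction held under each alternative run. Other changes did turn when a library was left out. Obp44a in library 4, a change larger in size than those named for Obp47b, went from -0.18 to 0.00 without library 3. Obp56e in library 3 went from 0.00 to -0.04 without library 4. No paired analysis was possible because the samples form a single group. No member had a further probe set to compare. Depth has no measure on arrays; 24 members lay at or under background in at least 1 library, and their order carries little information.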

Other observations

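A probe set that matches both Obp50b and Obp50c, neighbouring genes, gave 65.4 to 70.2 over the 4 libraries and was under the highest non-fly control in each. Receptor genes above background included Or59b, with 432 to 514, Or22b, with 238 to 271, and Gr68a, a gustatory receptor of male courtship, with 294 to 306. These examples were picked after their values had been seen.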
